A study of Mus musculus with 8 samples.

Results

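The S100 calcium-binding proteins were followed in mouse acute myeloid leukaemia cells after excision of Cdc73. The genes were taken by symbol: S100a1, S100a4, S100a6, S100a8, S100a9, S100a10, S100a11 and S100a13, which are 8 of the 23361 genes in the authors' deposited table. All 8 reached at least 1 FPKM (fragments per kilobase, a level set against transcript length and library size) in every group, and 9 further S100 genes of the table are described after them. The comparison is between Cdc73fl/fl CreERT2 cells, in which the Cdc73 gene is flanked by recombination sites, and Cdc73 +/+ CreERT2 cells. They are called floxed and wild type here. Both were established lines of strain 129S6, derived from bone marrow and made leukaemic with the MLL-AF9 fusion oncogene, and both carried CreERT2, a recombinase that becomes active with 4-hydroxytamoxifen (4OHT). All cells received 7.5 nM 4OHT, for 48 or 24 h, and grew with interleukin 3. Each of the 4 groups had 2 libraries of poly(A) RNA, described as biological duplicates. Neither the promoter of the recombinase nor whether each line is 1 clone is stated by the labels. No untreated cells were analysed here, so a difference between the lines that existed before 4OHT is part of every value below.

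S100 proteins are small proteins with EF-hand loops, most of which open a binding surface when calcium rises and then attach to a partner protein. They work as dimers inside the cell, where they touch myosin, annexins and the cytoskeleton, and some are released and act on receptors such as RAGE and TLR4. In the myeloid lineage S100A8 and S100A9 pair as calprotectin, one of the most abundant cytosolic proteins of neutrophils and monocytes, and their transcripts are widely read as a sign of myeloid maturation. Most mouse S100 genes stand together on chromosome 3.

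The deposited table holds 1 FPKM value per gene and group, with the duplicates already combined. Levels below are therefore the authors' group values, with no SD, and total reads per library are not given. A gene is called where the q-value of the authors' deposited table is under 0.05. The words rose and fell compare floxed with wild type cells at the same time, and do not describe a change over time. Cdc73, which encodes a subunit of the PAF1 elongation complex, stood at 5.45 FPKM in floxed and 26.9 in wild type cells at 48 h. At 24 h it stood at 5.96 in floxed and 26.2 in wild type cells, and both differences were in the direction of the labels. All 10 listed marker genes of the myeloid leukaemia line were expressed, with summed levels of 8506 to 9960 FPKM in the 4 groups. Among defining genes of other cells, Pax5, Cd3e, Fcer1a and Cma1 were listed at 0 in all groups. Other genes of the same lists were expressed: Cd79b of B cells stood at 5.90 FPKM in floxed and 1.06 in wild type cells at 48 h, and at 8.21 in floxed and 0.890 in wild type cells at 24 h. Mcpt8 of basophils stood at 5.92 in floxed and 3.52 in wild type cells at 48 h, and at 8.77 in floxed and 3.16 in wild type cells at 24 h. Ms4a2 of mast cells and basophils stood at 2.1 in floxed and 0.762 in wild type cells at 48 h, and at 3.26 in floxed and 0.848 in wild type cells at 24 h, and all 3 genes were called higher at both times. The 6 fibroblast genes summed to at most 0.0551 FPKM in any group. In these bulk RNA values, more cells of one type and more RNA per cell cannot be told apart.

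The upstream sequences of the genes whose levels carry the results are printed first, as a description. Their part in the S100 differences was not tested. They are the 250 bases before the RefSeq start (build GRCm38.p6), written 5′ to 3′ on the strand of the gene. S100a6 is shown from chr3:90612644-90612893 and S100a4 from chr3:90603520-90603769, both on the plus strand, as the genes with the highest ratios. S100a8, from chr3:90668821-90669070 on the plus strand, and S100a9, from chr3:90695722-90695971 on the minus strand, are the calprotectin pair that parted at 24 h. S100a11, from chr3:93520246-93520495 on the plus strand, is the most abundant of the others.
S100a6: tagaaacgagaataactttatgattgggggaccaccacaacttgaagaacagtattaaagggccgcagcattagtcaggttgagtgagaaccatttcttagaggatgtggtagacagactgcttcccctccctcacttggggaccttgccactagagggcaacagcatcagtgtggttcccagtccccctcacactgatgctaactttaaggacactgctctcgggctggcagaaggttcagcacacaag
S100a4: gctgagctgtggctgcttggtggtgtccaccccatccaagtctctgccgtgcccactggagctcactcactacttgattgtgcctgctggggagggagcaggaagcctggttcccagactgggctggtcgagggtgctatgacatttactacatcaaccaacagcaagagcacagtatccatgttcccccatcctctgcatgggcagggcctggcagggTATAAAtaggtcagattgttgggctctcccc
S100a8: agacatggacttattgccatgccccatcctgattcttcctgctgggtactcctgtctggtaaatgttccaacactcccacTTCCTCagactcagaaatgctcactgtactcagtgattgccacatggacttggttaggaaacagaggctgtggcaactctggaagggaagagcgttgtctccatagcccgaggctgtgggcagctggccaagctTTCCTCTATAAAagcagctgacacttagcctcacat
S100a9: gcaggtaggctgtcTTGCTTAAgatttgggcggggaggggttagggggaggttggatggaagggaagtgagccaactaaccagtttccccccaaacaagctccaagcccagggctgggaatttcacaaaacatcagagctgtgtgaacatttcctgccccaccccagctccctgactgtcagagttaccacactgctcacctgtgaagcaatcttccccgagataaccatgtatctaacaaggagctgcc
S100a11: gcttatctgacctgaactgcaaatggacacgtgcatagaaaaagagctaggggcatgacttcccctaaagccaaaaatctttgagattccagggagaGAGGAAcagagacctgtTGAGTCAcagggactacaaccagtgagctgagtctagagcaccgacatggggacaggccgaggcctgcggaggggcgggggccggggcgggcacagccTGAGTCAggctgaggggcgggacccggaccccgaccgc
Capitals mark matches, on either strand, to any of 4 short motifs, those of the TATA box, of PU.1, of AP-1 and of C/EBP. The TATA box was searched as TATAAA, which lay 31 bases before the start of S100a4 and 30 bases before that of S100a8, and 12.4% of all 32851 promoter windows of this length hold it. The search for PU.1, a myeloid factor, used GAGGAA. S100a8 had it at 170 and 36 bases on the opposite strand, the nearer copy directly before the TATA match without overlap, and S100a11 had it at 153 bases. Of all windows, 23.3% hold it. For AP-1 the letters were TGANTCA, found at 136 and 38 bases before S100a11 and in 6.75% of all windows. For the C/EBP family the letters were TTGCNNAA, found at 236 bases before S100a9 and in 9.56% of all windows. The window of S100a6 held none of the 4, and the unprinted windows of S100a1 and S100a13 held none either. CG pairs numbered 3 in the window of S100a6 and 2 each in those of S100a4, S100a8 and S100a9, against 11 in S100a11, 13 in S100a13 and 8 in S100a1, and the median window held 6. A match is a description of letters and not a site of binding. Of the 8 genes, 7 had an entry, and S100a10 is named only.

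**Figure D1:**
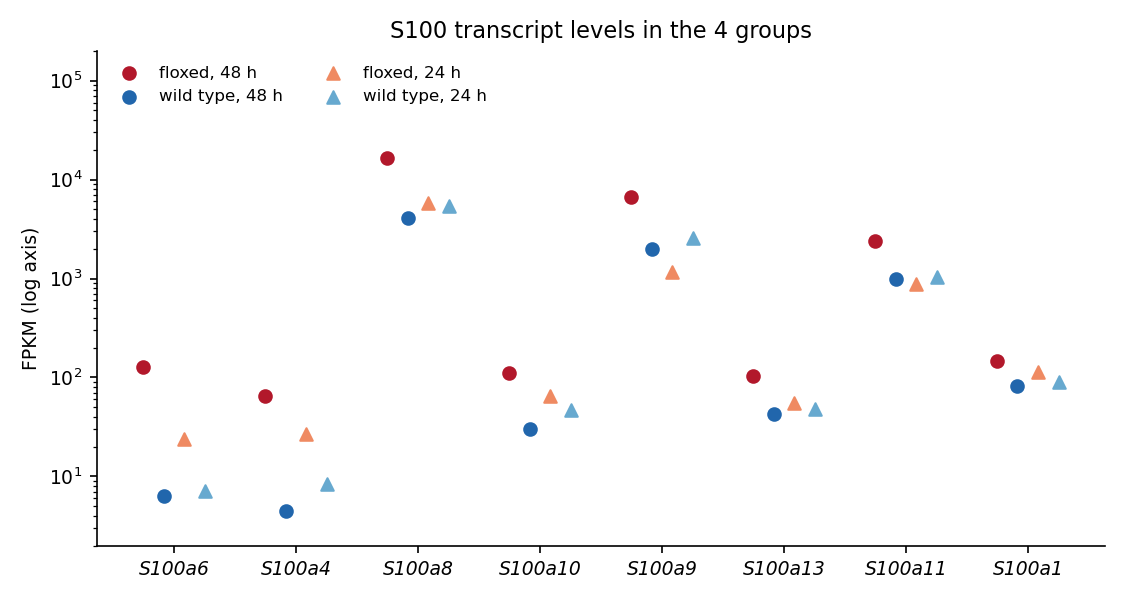
FPKM of each S100 gene (log axis) in floxed and wild type cells at 48 h (circles) and at 24 h (triangles), 1 deposited value per group, with genes ordered by their ratio at 48 h. In every gene the floxed value at 48 h is the highest of the 4, and S100a8, S100a9 and S100a11 lie above the other genes in every group.

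At 48 h all 8 S100 genes were higher in floxed than in wild type cells, and each had q = 0.000165 in the authors' deposited table. That is the smallest q the table holds at 48 h, and 3684 genes have it. Over all tested genes 25.7% were called higher at 48 h and 31.0% lower, so a call in itself was common. Of the 8 genes, 7 were both called and at least 2-fold higher, against 11.8% of all tested genes. The median difference of the 8 on the log2(FPKM + 1) scale was 1.78, against -0.06 over all 11158 expressed genes (1 FPKM or more in at least 1 group). The 8 were chosen with earlier results of these data known. Their shares and medians beside all genes, here and below, are therefore descriptions and not tests.

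At 24 h the same genes moved apart. Here 3 were called higher (S100a4, S100a6 and S100a10), 1 was called lower (S100a9), and the other 4 had no call. Over all tested genes, 13.4% were called higher and 14.2% lower at 24 h. S100a4 and S100a6 were called and at least 2-fold higher, as were 3.75% of all tested genes. Of the 8 genes, 3 were called higher at both times, against 10.2% of genes tested at both times. Since all 8 were called higher at 48 h, those 3 had to be higher then. The median log2 difference of the 8 was 0.28, against -0.01 over all expressed genes.

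**Figure D2:**
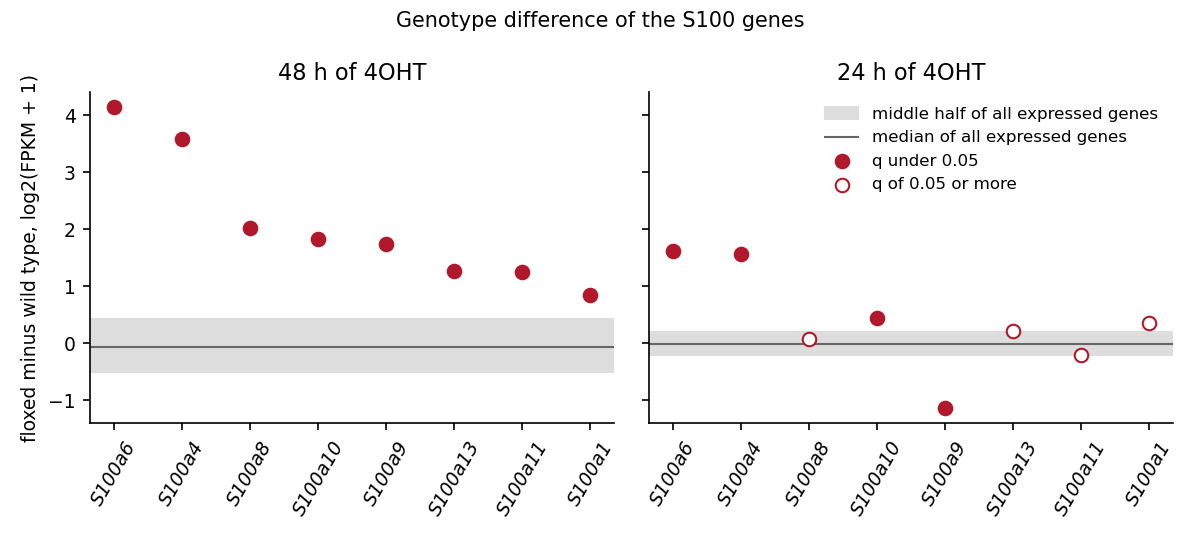
Floxed minus wild type difference of each S100 gene in log2(FPKM + 1) after 48 h (left) and 24 h (right), with filled points for q under 0.05, beside the median (line) and the range of the central quartiles (band) of all expressed genes. At 48 h all points lie above the band, between 0.85 and 4.14; at 24 h S100a6, S100a4, S100a10 and S100a1 lie above it, S100a13 (0.21) just above its upper edge and S100a9 below it.

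S100a6 and S100a4 had the widest differences at both times. S100A6, or calcyclin, binds the ubiquitin ligase adaptor CACYBP and annexin A11, and is typical of proliferating and mesenchymal cells. Its gene (ENSMUSG00000001025.8) lies on chromosome 3 from 90612882 to 90624181 on the plus strand of mm10. S100a6 stood at 128.8 FPKM in floxed and 6.36 in wild type cells at 48 h, and at 23.7 in floxed and 7.12 in wild type cells at 24 h. The floxed values were the high ones at both times, and that at 48 h was far above the other 3. The ratios were 20.3 at 48 h and 3.34 at 24 h, with q = 0.000165 and q = 0.000449 in the authors' deposited table. The log2 difference of 4.14 at 48 h exceeded that of 99.6% of expressed genes.

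S100A4 binds non-muscle myosin IIA and is linked to cell movement. Its gene (ENSMUSG00000001020.8) runs from 90603771 to 90606045 on the plus strand of chromosome 3, and the loci of S100a4 and S100a6 are 6.85 kb apart. S100a4 stood at 64.8 FPKM in floxed and 4.49 in wild type cells at 48 h, and at 26.9 in floxed and 8.45 in wild type cells at 24 h. Floxed cells were again the high groups, by 14.4-fold at 48 h (q = 0.000165) and 3.18-fold at 24 h (q = 0.000449) in the authors' deposited table. Part of the wider ratio at 48 h came from the wild type value, which was 0.531 times that at 24 h. Both genes were the lowest of the 8 in wild type cells. The ratio of S100a6 to S100a4, which scaling a group by a constant does not change, was 1.99 in floxed and 1.42 in wild type cells at 48 h, and 0.884 in floxed and 0.842 in wild type cells at 24 h.

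S100a8 and S100a9 were the most abundant S100 transcripts and behaved unlike each other at 24 h. S100A8 carries, with S100A9, calcium and zinc in calprotectin, and both proteins signal through TLR4 when released. The S100a8 gene (ENSMUSG00000056054.9) runs from 90668978 to 90670035 on the plus strand of chromosome 3. Its level was 16678 FPKM in floxed and 4134 in wild type cells at 48 h, and 5757 in floxed and 5445 in wild type cells at 24 h. Only floxed cells at 48 h stood out, and the 24 h values were close. At 48 h it was the highest of all genes in floxed cells and held place 5 in wild type cells, while at 24 h it held place 3 in both. The ratio was 4.03 at 48 h, and at 24 h it was 1.06 with q = 0.745 in the authors' deposited table. On the log2(FPKM + 1) scale the 48 h difference was 2.01, and 0.87 under quantile normalization, which replaces the highest values by means over the groups.

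S100a9 (ENSMUSG00000056071.12) runs from 90692632 to 90695721 on the minus strand, and 22.6 kb separate the loci of the pair. Its level was 6618 FPKM in floxed and 1993 in wild type cells at 48 h, and 1166 in floxed and 2574 in wild type cells at 24 h. Floxed cells thus held both the highest and the lowest of the 4 values. The gene was 3.32-fold higher in floxed than in wild type cells at 48 h (q = 0.000165). At 24 h it stood at 0.453 times the wild type level (q = 0.000449), both q from the authors' deposited table. Among genes tested at both times, 1.08% were called lower at 24 h and higher at 48 h. The ratio of S100a8 to S100a9 was 2.52 in floxed and 2.07 in wild type cells at 48 h, and 4.94 in floxed and 2.12 in wild type cells at 24 h. Floxed cells at 24 h stood apart in this ratio, and the other groups were close. With 1 value per group the difference between these ratios has no test. Together the pair held 3.33% of all FPKM in floxed and 0.938% in wild type cells at 48 h, and 1.05% in floxed and 1.20% in wild type cells at 24 h.

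**Figure D3:**
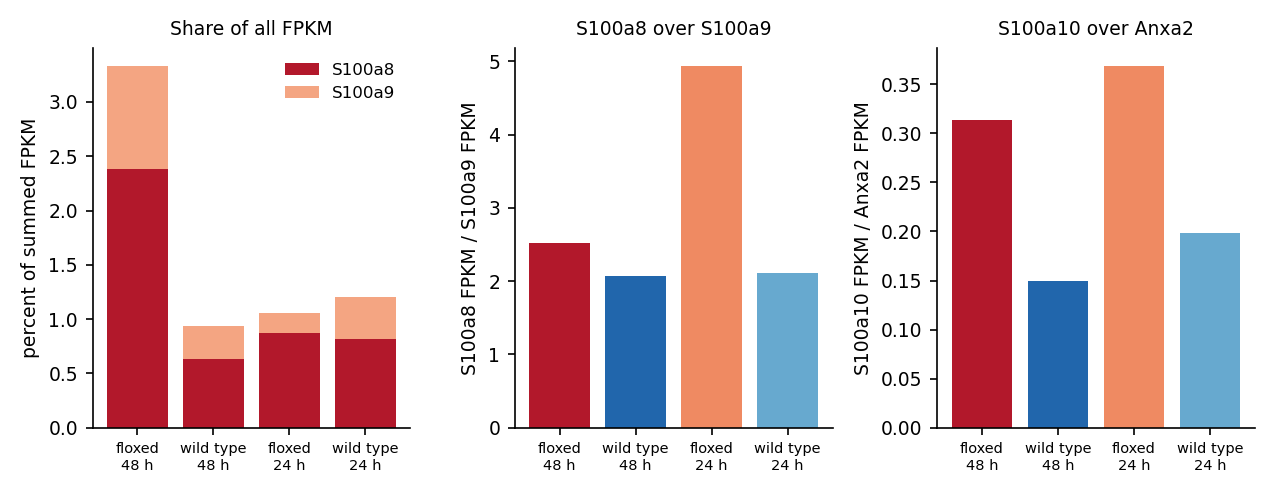
Left, share of the summed FPKM held by S100a8 and S100a9 in each group; middle, FPKM of S100a8 divided by that of S100a9; right, FPKM of S100a10 divided by that of Anxa2, its partner in the annexin A2 complex. The pair's share is highest in floxed cells at 48 h (3.33%), the S100a8 over S100a9 ratio is highest in floxed cells at 24 h (4.94), and S100a10 over Anxa2 is higher in floxed than in wild type cells at both times.

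Most listed neutrophil granule genes were higher in floxed cells at 48 h, as the calprotectin genes were. Of 9 neutrophil granule genes, 8 were called higher and 1 lower at 48 h, and 3 were called higher and 4 lower at 24 h. The background for this and the following marker lists is the share over all tested genes. It was 25.7% higher and 31.0% lower at 48 h, and 13.4% higher and 14.2% lower at 24 h. Their summed level was 2028 FPKM in floxed and 723 in wild type cells at 48 h, and 1145 in floxed and 1057 in wild type cells at 24 h. The list did not share 1 pattern at 24 h. Camp, Mmp8 and Retnlg were called higher at both times, and Itgb2l was called lower at both. Ltf and Ngp were called higher at 48 h and had no call at 24 h. Lcn2, Mmp9 and Cd177 in that list had the same order of the 4 groups as S100a9, a likeness looked for after their values were seen. All 3 were called higher at 48 h and lower at 24 h. Lcn2, the siderophore-binding protein of granules, stood at 445 FPKM in floxed and 94.7 in wild type cells at 48 h, and at 80.5 in floxed and 117 in wild type cells at 24 h. Mmp9, a gelatinase of tertiary granules, stood at 46.7 in floxed and 7.01 in wild type cells at 48 h, and at 4.12 in floxed and 9.90 in wild type cells at 24 h. Cd177, a neutrophil surface protein, stood at 61.8 in floxed and 25.7 in wild type cells at 48 h, and at 24.5 in floxed and 33.1 in wild type cells at 24 h. Of the 10 myeloid line markers, 6 were called higher and 3 lower at 48 h, and 1 higher and 1 lower at 24 h. The 3 lower at 48 h were Mpo, Elane and Ctsg, which encode granule proteins but are not among the 9 above. Ctsg stood at 381 FPKM in floxed and 1656 in wild type cells at 48 h, and was called lower at both times. Elane, whose locus entry is shared with many genes, stood at 1745 in floxed and 3587 in wild type cells at 48 h. Mpo stood at 1011 in floxed and 1368 in wild type cells at 48 h. At 24 h it stood at 1986 in floxed and 1145 in wild type cells, called higher.

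Of 5 expressed monocyte genes, 3 were called higher and 2 lower at 48 h, and 2 were called lower at 24 h. They summed to 3042 FPKM in floxed and 2053 in wild type cells at 48 h, and to 2289 in floxed and 2273 in wild type cells at 24 h. Most of each sum was Ly6c2, at 2860 in floxed and 1859 in wild type cells at 48 h. Ccr2 and F13a1 were the 2 called lower, at both times. At 48 h Ccr2 stood at 33.6 in floxed and 52.1 in wild type cells, and F13a1 at 39.0 in floxed and 113.7 in wild type cells. Cx3cr1 reached at most 0.139 FPKM in any group. Eosinophil genes summed to 114 FPKM in floxed and 13.8 in wild type cells at 48 h, and to 139 in floxed and 22.1 in wild type cells at 24 h. Of 5 expressed eosinophil genes, 4 were called higher at 48 h and 3 at 24 h, and Ccr3 reached at most 0.109 FPKM. Mast cell and basophil genes summed to 8.05 FPKM in floxed and 4.50 in wild type cells at 48 h, and to 12.1 in floxed and 4.26 in wild type cells at 24 h, and both expressed ones of that list were called higher at both times. The lists of erythroid, megakaryocyte, B cell and T cell genes had 1, 3, 1 and 1 expressed members, of which 1, 2, 1 and 0 were called higher at 48 h and 1, 0, 1 and 0 at 24 h, with none lower. The erythroid one and 2 of the megakaryocyte ones passed the filter only through floxed cells at 48 h. The sums of these lists stayed at or under 13.3 FPKM in every group. The part of these markers in the S100 differences was not tested.

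S100a10 and S100a11 are the annexin partners of the family. S100A10, also called p11, does not need calcium to hold annexin A2, and the complex binds plasminogen and tissue plasminogen activator at the cell surface. S100a10 (ENSMUSG00000041959.14) runs from 93555080 to 93564643 on the plus strand of chromosome 3. It stood at 110.0 FPKM in floxed and 30.4 in wild type cells at 48 h, and at 64.9 in floxed and 47.3 in wild type cells at 24 h. Both floxed values were above both wild type values. The gene rose 3.62-fold at 48 h (q = 0.000165) and 1.37-fold at 24 h (q = 0.0109) in the authors' deposited table.

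Anxa2, which encodes its annexin partner, stood at 351 FPKM in floxed and 204 in wild type cells at 48 h, and at 176 in floxed and 239 in wild type cells at 24 h. It rose at 48 h (1.72-fold, q = 0.000165) and fell at 24 h (0.736 times, q = 0.00804) in the authors' deposited table. Per Anxa2 transcript there were 0.314 transcripts of S100a10 in floxed and 0.149 in wild type cells at 48 h, and 0.369 in floxed and 0.198 in wild type cells at 24 h, by FPKM. The share was higher in floxed cells at both times although Anxa2 itself changed sign. Ahnak, a giant scaffold that binds the complex, stood at 2.91 FPKM in floxed and 0.637 in wild type cells at 48 h (q = 0.000165 in the authors' deposited table), and at 1.45 in floxed and 1.04 in wild type cells at 24 h with no call.

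S100A11 binds annexin A1 and takes part in membrane repair and growth control. Its gene (ENSMUSG00000027907.4) runs from 93520488 to 93526287 on the plus strand, 28.8 kb from the S100a10 locus. S100a11 stood at 2390 FPKM in floxed and 999 in wild type cells at 48 h, and at 890 in floxed and 1031 in wild type cells at 24 h. Floxed cells at 48 h were again the high group, and the other 3 values lay close together. The gene rose 2.39-fold at 48 h, and its 24 h ratio of 0.864 had q = 0.279 in the authors' deposited table. Anxa1, an annexin that limits inflammation, stood at 169.8 FPKM in floxed and 37.4 in wild type cells at 48 h, a 4.54-fold rise with q = 0.000165 in the same table. At 24 h Anxa1 stood at 58.6 in floxed and 47.9 in wild type cells, with no call.

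S100a13 and S100a1 are neighbours that point away from each other, and with S100a11 they had the smallest ratios of the family at 48 h. S100A13 helps release FGF1 and interleukin 1 alpha, which lack a secretion signal, and S100A1 is best known for its control of calcium handling in heart and muscle. S100a13 (ENSMUSG00000042312.9) runs from 90514435 to 90524581 on the plus strand, and S100a1 (ENSMUSG00000044080.9) from 90511034 to 90514392 on the minus strand. The deposited loci are 104 bases apart with their starts side by side, so their upstream windows overlap. S100a13 stood at 103 FPKM in floxed and 42.4 in wild type cells at 48 h, and at 55.9 in floxed and 48.1 in wild type cells at 24 h. S100a1 stood at 148 FPKM in floxed and 81.7 in wild type cells at 48 h, and at 113.9 in floxed and 89.2 in wild type cells at 24 h. In both genes the floxed values were the higher ones, and the 24 h values lay closer together. S100a13 rose 2.44-fold and S100a1 1.81-fold at 48 h, while at 24 h their ratios of 1.16 and 1.28 had q = 0.299 and q = 0.0522 in the authors' deposited table. Across the 4 groups their profiles were the most alike of the 28 pairs of members, at a distance of 0.38 between centred log2 values. The cargo genes of S100A13 were low, with Fgf1 at most 0.035 FPKM and Il1a at most 0.566 in any group (both named after their values were seen).

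Ordered by level, S100a8, S100a9 and S100a11 came first, in that order, in every group, and S100a1 was the fourth in all of them. In floxed cells at 48 h the order went on with S100a6, S100a10, S100a13 and S100a4, and S100a10 and S100a13 were at 110.0 and 103 FPKM. In wild type cells at 48 h it went on with S100a13, S100a10, S100a6 and S100a4. At 24 h the last place was held by S100a6 in both lines, at 23.7 FPKM in floxed and 7.12 in wild type cells, next to S100a4 at 26.9 in floxed and 8.45 in wild type cells. With 1 value per group, no neighbours in these orders can be told apart by their spread. FPKM is per length, but the annotated transcripts are short (336 to 783 bases), and the sources used here do not say how the authors corrected short ones.

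Every S100 member had a wider genotype difference at 48 h than at 24 h. Counted with its sign, the difference in log2(FPKM + 1) was larger at 48 h by 2.87 for S100a9, 2.53 for S100a6, 2.02 for S100a4 and 1.93 for S100a8. It was larger by 1.47 for S100a11, 1.38 for S100a10, 1.06 for S100a13 and 0.50 for S100a1. For 2 genes these gains include a change of sign, S100a9 from -1.14 to 1.73 and S100a11 from -0.21 to 1.26. A signed gain of 1 or more was seen in 7 of the 8 and in 6.47% of all expressed genes. No test of the change with time can be made on 1 value per group. Within floxed cells all 8 levels were higher at 48 h than at 24 h, by 5.68-fold for S100a9, 5.42-fold for S100a6 and 2.90-fold for S100a8, and by 1.30-fold for S100a1 at the low end. Of all expressed genes 43.2% were higher at 48 h in floxed cells. Within wild type cells all 8 were lower at 48 h than at 24 h, at 0.531 times the 24 h level for S100a4, 0.642 for S100a10 and 0.759 for S100a8, and at 0.969 for S100a11. Of all expressed genes 55.2% were lower at 48 h in wild type cells. Whether the libraries of both times were scaled in 1 run is not known, so these ratios between times are values without a call.

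The other S100 genes of the table were nearly silent. Of 9, 7 stayed under 1 FPKM in all groups (S100a5, S100a7a, S100a14, S100a16, S100b, S100g and S100z), and S100z was listed at 0 in all 4. S100a2 stood at 1.11 FPKM in floxed cells and was listed at 0 in wild type cells at 48 h, with q = 0.000457 in the authors' deposited table, and stood at 0.105 in floxed and 0.125 in wild type cells at 24 h. S100a3, between S100a2 and S100a4, stood at 1.38 FPKM in floxed and 0.0285 in wild type cells at 48 h without a call, and at 0.0235 in floxed and 0.0262 in wild type cells at 24 h. S100a7a, named after its values were seen, reached 0.910 in floxed and 0.0532 in wild type cells at 48 h, also without a call. S100a2 and S100a3 passed the expression filter only through floxed cells at 48 h, so they had to differ there.

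**Figure D4:**
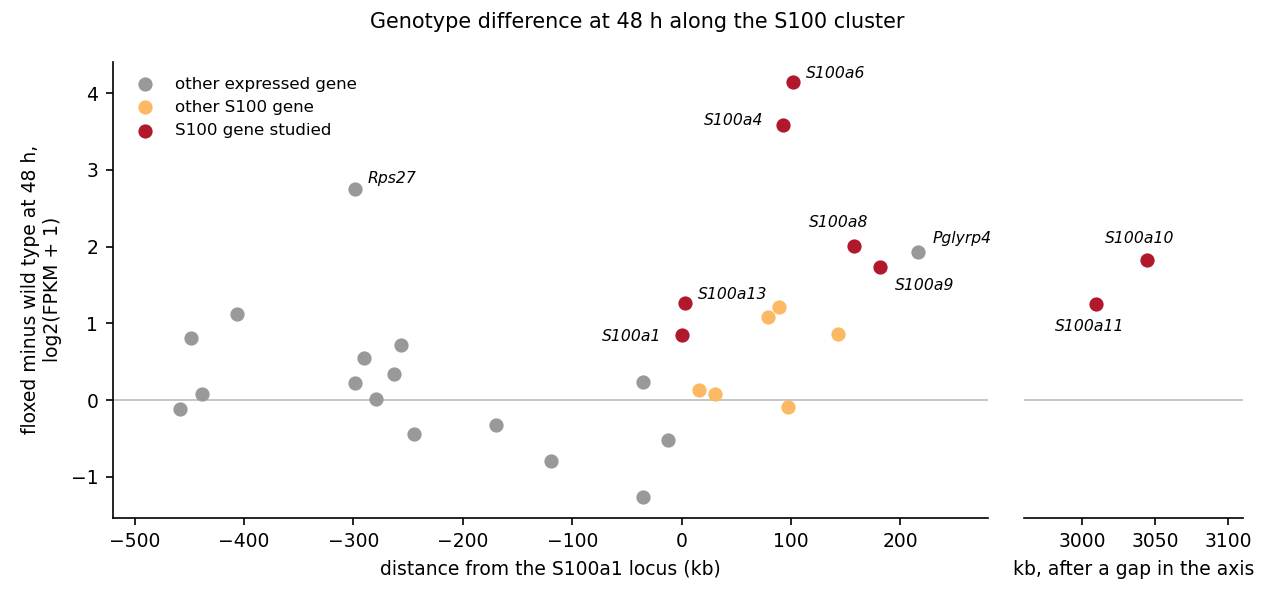
Floxed minus wild type difference at 48 h in log2(FPKM + 1) against distance from the S100a1 locus in kb. The axis has a gap before S100a11 and S100a10. Points are the 8 S100 genes (red), other S100 genes (orange) and other expressed genes (grey). The grey genes were searched from 500 kb before S100a1 to 500 kb beyond S100a10. All red points lie above 0, while the grey points to the left of S100a1 lie on both sides of 0; Rps27, named for its value, shares its locus entry with Gm9846 and had no call.

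Position was set beside these values. S100a1 to S100a9 span 185 kb, and S100a11 and S100a10 lie 2.82 Mb further on, beyond the epidermal differentiation genes. Of 54 genes of the table between S100a9 and S100a11, 1 was expressed. That gene was Pglyrp4, a peptidoglycan recognition protein, at 3.03 FPKM in floxed and 0.0554 in wild type cells at 48 h (q = 0.00304 in the authors' deposited table) and at 0.0546 in floxed and 0.0294 in wild type cells at 24 h. It passed the expression filter only through floxed cells at 48 h, so it had to be higher there. Before S100a1, 18 genes were expressed within 500 kb. Of these, 4 were called higher and 5 lower at 48 h, and 4 higher and 5 lower at 24 h. With Pglyrp4 these make 19 expressed neighbours. At 48 h 26.3% of them were called higher and 26.3% lower, against 25.7% and 31.0% of all tested genes. At 24 h the shares were 21.1% and 26.3%, against 13.4% and 14.2%. These shares are over all 19 neighbours, of which 18 were tested at 48 h and 17 at 24 h. Their median log2 difference at 48 h was 0.22, and 0.12 with groups rescaled to the same sum or 0.33 by the median ratio. Of the 19, 4 passed the filter only through floxed cells at 48 h, Nup210l and Pglyrp4 among them, and 2 of the 5 called higher remain without those 4. Ubap2l fell to 49.5 FPKM in floxed cells, against 88.8 in wild type cells, at 48 h. Nup210l, a nucleoporin-like gene, rose to 1.52 FPKM in floxed cells, against 0.157 in wild type cells, at 48 h, and reached 1 FPKM in no group other than floxed cells at 48 h. Snapin, a protein of vesicle fusion, fell to 15.9 FPKM in floxed cells, against 39.6 in wild type cells, at 48 h. Snapin shares its locus entry with Ilf2 and Ubap2l with Gm19710, so the split of reads there is uncertain.

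Receptors and signalling genes for released S100 proteins were mostly higher at 48 h. Of 14 expressed genes, 8 were called higher and 2 lower at 48 h (57.1% and 14.3%), against 25.7% and 31.0% of all tested genes. At 24 h 4 were called higher and 3 lower (28.6% and 21.4%), against 13.4% and 14.2%. The median log2 difference was 0.55 at 48 h and 0.0053 at 24 h (0.0044 to 0.024 under the other settings). Ager, which encodes RAGE, stood at 6.97 FPKM in floxed and 0.152 in wild type cells at 48 h, and at 1.05 in floxed and 0.187 in wild type cells at 24 h, called higher at both times. Alcam, an adhesion molecule that can bind S100B, rose 9.36-fold at 48 h and 2.01-fold at 24 h. Cd14, the co-receptor of TLR4, stood at 96.7 in floxed and 20.3 in wild type cells at 48 h, where it was called, and at 21.3 in floxed and 22.9 in wild type cells at 24 h without a call. Myd88, the adaptor of TLR4, rose 2.21-fold at 48 h. Tlr4 itself rose by less, to 33.5 FPKM in floxed cells, against 23.5 in wild type cells, at 48 h (q = 0.00649 in the authors' deposited table), and to 29.1 in floxed cells, against 22.2 in wild type cells, at 24 h (q = 0.0241). Bsg, or basigin, which binds S100A9, stood at 405 in floxed and 264 in wild type cells at 48 h without a call, and its locus entry is shared with many neighbours, Elane and Prtn3 among them, so its value is uncertain.

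Most intracellular partners were either higher or without a call at 48 h. Of 21 expressed genes, 11 were called higher and 2 lower at 48 h (52.4% and 9.52%), against 25.7% and 31.0% of all tested genes. At 24 h 1 was called higher and 2 lower (4.76% and 9.52%), against 13.4% and 14.2%. The median log2 difference was 0.63 at 48 h. Myh9, the myosin bound by S100A4, stood at 155.7 FPKM in floxed and 89.5 in wild type cells at 48 h (q = 0.000165 in the authors' deposited table) and at 106.4 in floxed and 104.0 in wild type cells at 24 h without a call. Of the S100A6 partners, Cacybp fell at 48 h, with 96.3 in floxed and 151.7 in wild type cells, while Anxa11 rose, with 76.4 in floxed and 39.5 in wild type cells. Lmna, the gene of lamins A and C, rose 10.1-fold at 48 h and 3.16-fold at 24 h. Cybb, the catalytic subunit of the phagocyte oxidase to which calprotectin carries arachidonic acid, stood at 156.3 in floxed and 60.1 in wild type cells at 48 h and at 62.0 in floxed and 87.8 in wild type cells at 24 h. Its call was higher at 48 h and lower at 24 h.

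In the plasminogen system around S100A10, 5 of 6 expressed genes were called higher and 1 lower at 48 h, and 4 were called higher and 1 lower at 24 h. The shares over all tested genes were 25.7% higher and 31.0% lower at 48 h, and 13.4% and 14.2% at 24 h. Plaur, the receptor of urokinase, stood at 152 FPKM in floxed and 26.1 in wild type cells at 48 h and at 45.9 in floxed and 33.7 in wild type cells at 24 h. Serpinb2, which blocks plasminogen activators, stood at 92.0 FPKM in floxed and 0.605 in wild type cells at 48 h. Serpine2, another protease inhibitor, stood at 6.16 in floxed and 1.13 in wild type cells at that time. Eno1, an enolase that can also hold plasminogen, was the lower one, at 219 in floxed and 540 in wild type cells at 48 h, and it shares its locus entry with Gm5506. Plat, the tissue activator, was listed at 0 in all groups, and Plg, its substrate, reached at most 0.0056 FPKM (both named after their values were seen).

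Of 16 transcription factors linked to myeloid S100 genes, 11 were called higher and 1 lower at 48 h (68.8% and 6.25%). At 24 h 8 were called higher and 3 lower (50% and 18.8%). All tested genes gave 25.7% higher and 31.0% lower at 48 h, and 13.4% and 14.2% at 24 h. Cebpe, which drives late granulocyte genes, stood at 313 FPKM in floxed and 70.3 in wild type cells at 48 h and at 147.8 in floxed and 69.4 in wild type cells at 24 h. Cebpb, active in stress and in mature myeloid cells, rose to 131.8 in floxed cells, against 85.4 in wild type cells, at 48 h. At 24 h it rose to 124 in floxed cells, against 96.2 in wild type cells. Cebpa, needed for the granulocyte-monocyte progenitor, stood at 59.7 in floxed and 74.3 in wild type cells at 48 h without a call, and fell at 24 h to 35.7 in floxed cells, against 68.8 in wild type cells. Spi1, the gene of PU.1, listed in the table as Sfpi1, stood at 271 in floxed and 194 in wild type cells at 48 h (q = 0.0105 in the authors' deposited table) and at 215 in floxed and 215 in wild type cells at 24 h without a call. Fos, Jun and Junb, subunits of AP-1, rose 10.7-, 8.17- and 5.03-fold at 48 h and 5.22-, 1.47- and 2.53-fold at 24 h.

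Other EF-hand genes went both ways. Of 38 expressed, 15 were called higher (39.5%) and 9 lower (23.7%) at 48 h, with a median log2 difference of 0.20. That median was 0.11 with groups rescaled to the same sum and 0.30 by the median ratio. At 24 h 7 were called higher and 4 lower (18.4% and 10.5%). The same shares of all tested genes were 25.7% and 31.0% at 48 h, and 13.4% and 14.2% at 24 h. Capn2, the large subunit of a calpain, rose 8.67-fold at 48 h. Aif1, an actin-binding protein of macrophages, stood at 4.88 FPKM in floxed and 0.418 in wild type cells at 48 h. It passed the filter only through floxed cells at 48 h, and 14 of the 15 called higher remain without it. Ppp3cb, counted among the 9 lower genes, is a catalytic subunit of calcineurin, and the EF-hands lie in the subunit it works with. It fell to 0.413 times the wild type level at 48 h, and it shares its locus entry with Usp54.

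**Figure D5:**
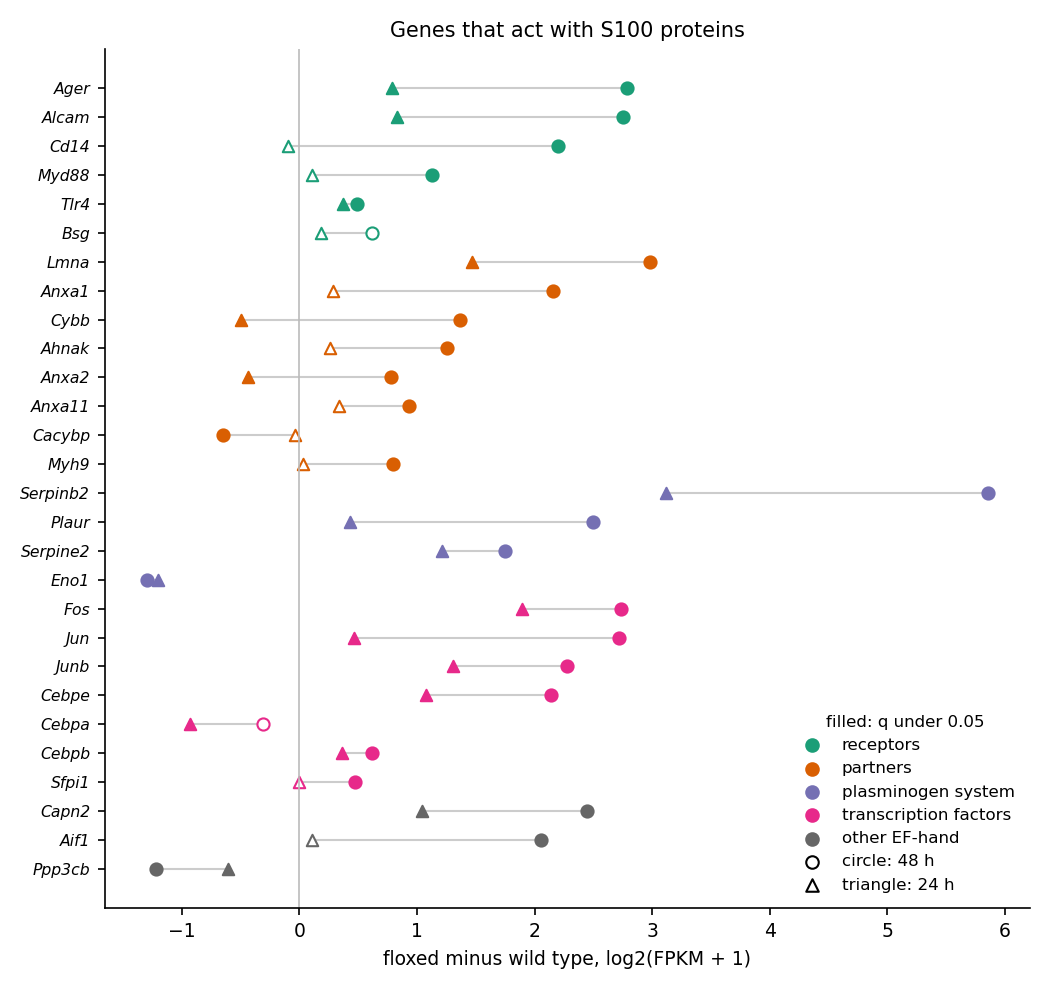
Floxed minus wild type difference in log2(FPKM + 1) at 48 h (circles) and 24 h (triangles) of named receptors, partners, plasminogen genes, transcription factors and other EF-hand genes, with filled symbols for q under 0.05. Most circles lie to the right of their triangles; Anxa2 and Cybb have called values on both sides of 0.

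Genes with the profile most like that of S100a8 over the 4 groups were Gngt2, Ptafr, Gp49a, Ier3 and Capg, among 7117 genes that reached 10 FPKM in some group. Their distances to S100a8 (Euclidean, over 4 centred log2 values) were 0.14 to 0.18, the smallest by design of the search. S100a9 lay at 1.02 from S100a8. Capg, an actin-capping protein, stood at 163 FPKM in floxed and 46.6 in wild type cells at 48 h and at 61.2 in floxed and 60.7 in wild type cells at 24 h. For S100a4 the nearest were Pira6, Fpr2, Lmna, Gm5416 and Thbs1, at distances of 0.36 to 0.55. Fpr2, a receptor of formyl peptides, stood at 27.3 FPKM in floxed and 2.16 in wild type cells at 48 h and at 10.9 in floxed and 3.81 in wild type cells at 24 h. Gngt2 shares its locus entry with other genes, and Gp49a and Pira6 belong to families of similar sequence, so their values are uncertain. These likenesses describe the same 4 values and carry no test.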

How the data were processed

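Poly(A) RNA of 8 libraries in 4 groups was sequenced. The submitters' processing notes name the build mm10 and the tools Bowtie2, Cuffdiff and Cufflinks 2.1 without saying which step each did. Per the file headers, the deposited table holds FPKM per gene and group, the authors' q-value at each time, and the authors' fold. The last column repeats the 24 h name, and equals the ratio of the 48 h FPKM within 0.1% for 14820 of 14823 genes.

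The members and lists were chosen with earlier results of these data known. Calls are the authors' q under 0.05, counted among expressed genes with q under 1 (11039 at 48 h, 10987 at 24 h). Differences are in log2(FPKM + 1), which understates low genes. Named in each list were up to 4 called genes of widest difference, beside direct partners, receptors and factors fixed by name. Some genes this rule names are not reported here. Older symbols were matched through RefSeq synonyms (Spi1 as Sfpi1). Gene coordinates are from GENCODE on the same assembly as mm10. Depth per library is unknown. Among genes under 0.05 FPKM the most common floxed over wild type ratio was 1.07 at 48 h and 0.834 at 24 h. Few genes lay near it, 41 of 995 at 48 h and 68 of 1274 at 24 h. The pattern search was tested on simulated data. Python 3.11.15, numpy 2.4.6 and pandas 2.3.3 were used.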

Additional observations from a re-analysis of the deposited data

Results flagged for a closer look

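S100a9 was called in opposite directions at the 2 times, with a log2 difference of 1.73 at 48 h and -1.14 at 24 h, floxed minus wild type. Cybb was likewise called higher at 48 h (1.36) and lower at 24 h (-0.50). Anxa2 was called higher at 48 h (0.78) and lower at 24 h (-0.44). The difference between the times was not tested in any of these genes, since each group has 1 deposited value. Among all genes tested at both times, 1.08% had this order of calls.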

How the results depend on the processing

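The log2 differences of the 8 S100 genes kept their sign under 2 other pseudocounts and 4 other scalings (95 of 96 values), and the exception was S100a8 at 24 h, which had no call and came to 0 under quantile normalization. At 48 h that normalization gave S100a8 a difference of 0.87 in place of 2.01, since it replaces each value by the mean over the groups at the same rank. All 8 members kept a wider difference at 48 h under each of these settings. No scaling moved the median of all expressed genes by over 0.1. Of all genes, 1997 were called at 24 h with q under 0.01, against 3037 with q under 0.05. Under these settings the median differences of the gene lists stayed within 1.5 times in 60 cases, moved by more with the same sign in 20, and turned sign in 4. The median of the intracellular partners at 24 h, -0.0041, came to 0.015, 0.013 and 0.014 when groups were rescaled to the same sum, to the same sum without S100a8 and S100a9, and by the median ratio, and to 0.0032 under quantile normalization. The cause was not tested. No paired analysis was possible because the table holds 1 value per group, and for the same reason no library could be left out and no detection limit was computed.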
